A study of Mus musculus with 10 samples.

Results

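The genes described here are 31 genes of red cell formation other than the globins and the enzymes of heme synthesis: 14 genes of the red cell membrane and its skeleton, 8 regulators, 3 receptors and 6 genes of terminal maturation. They were listed by name, with no threshold on a measured value but with earlier results of these data known, and found by Ensembl identifier. All 31 had a row among the 55401 genes of the count table, and all 31 passed the low-count filter and were among the 14098 genes tested. Liver RNA was taken from 10 female mouse fetuses on embryonic day 18.5 and profiled by polyA RNA-seq. In 5 of them the microRNA gene Mir483 had been deleted from the paternal chromosome (Mir483Pat-KO), and the other 5 were WT littermates. The mutant line was derived from targeted JM8.F6 embryonic stem cells (C57BL/6N) whose selection cassette was excised with Cre in culture, so that the deletion is constitutive and not limited to hepatocytes or blood cells, and mouse work was done on a C57BL/6J background. Mir483 lies within the imprinted Igf2 gene, whose paternal copy is the active one in the fetus. The study sequenced these livers to describe the molecular consequences of losing Mir483.

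Before birth the liver is a main site of blood formation. Erythroid progenitors carry the stem cell factor receptor Kit and then the erythropoietin receptor Epor, and their programme is run by a small set of transcription factors that includes Gata1, Tal1, Lmo2 and Klf1. As erythroblasts mature they take up iron through the transferrin receptor, fill with haemoglobin, build a spectrin-based skeleton under the membrane, and finally expel the nucleus. The 31 genes were therefore also read by stage: 4 genes used mainly in early progenitors (Kit, Lmo2, Tal1 and Zfpm1), 19 used mainly in late erythroblasts, and 8 in between.

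The microRNA that was removed gives rise to a pair of mature strands, shown because the seed of each decides which transcripts it can pair with. Their sequences come from RefSeq (GRCm38.p6), from the minus strand at chr7:142654932-142654952 for the 3p strand and chr7:142654968-142654989 for the 5p strand. Capitals mark the seed, bases 2 to 8.
mmu-miR-483-3p: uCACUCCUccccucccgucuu
mmu-miR-483-5p: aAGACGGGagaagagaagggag

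Total counts ranged from 10831350 to 14765880 per library. Mir483 was read first, as a check of the labels. WT replicates 1 to 5 held 11, 10, 22, 21 and 12 Mir483 counts, and no Mir483Pat-KO library held any. Against a floor of 3 counts per library, which is 0.270 CPM in the shallowest of the Mir483Pat-KO libraries, its level was lower by at least 4.32-fold (edgeR quasi-likelihood test, adjusted p = 0.00133). PolyA libraries do not capture the mature strands, and what was counted here is fragments of longer transcripts. CPM are read counts scaled to the effective size of each library (TMM), and changes are log2 fold changes of Mir483Pat-KO over WT.

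The identification numbers in the sample labels form a low and a high range. WT replicates 1 to 4 and Mir483Pat-KO replicates 1 and 2 carry low numbers, and WT replicate 5 and Mir483Pat-KO replicates 3 to 5 carry high ones. The labels do not say what the ranges stand for. Because 3 of the 4 high-numbered libraries are Mir483Pat-KO, the main results below are also given for the low-numbered libraries alone. Index numbers are 53 to 57 for WT libraries and 60 to 64 for Mir483Pat-KO libraries, so index order and genotype cannot be told apart.

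Of the 31 genes, 8 were higher in Mir483Pat-KO at an adjusted p under 0.05 (edgeR quasi-likelihood test, Benjamini-Hochberg over 14098 genes), which is 25.8% of them, against 2.43% of all genes tested. None was lower, against 2.76% of all genes tested, and none was lower at an unadjusted p under 0.05 or with DESeq2 or limma-voom. The 8 were the skeleton genes Tmod1 and Epb41, the blood group and membrane genes Xk, Kel, Gypc and Rhag, the transcriptional adaptor Lmo2 and the mitochondrial iron carrier Slc25a37. The changes were small, from 0.27 to 0.51, and no member passed with a fold change over 1.5. The study's rule for differential expression also asked for a fold change over 1.5, so none of the 8 met it in this fit. The share of all genes past that rule was not counted. Log2 fold changes were positive for 27 of the 31 genes, against 50.9% of all genes tested, with a median of 0.15, against 0.0042 for all genes tested. For 8 of the 31 every Mir483Pat-KO library lay above every WT library, against 3.34% of all genes tested. These were 7 of the 8 that passed, all but Lmo2, and Epb42. In whole liver, more erythroid cells and more RNA per erythroid cell cannot be told apart.

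By role, 6 of the 14 membrane genes passed, with all 14 positive and a median of 0.24. Among the regulators 1 of 8 passed (median 0.060), among the genes of maturation 1 of 6 (median 0.18), and among the receptors 0 of 3 (median −0.052, with 1 receptor, Tfrc, at an unadjusted p under 0.05 in edgeR). By stage, 7 of the 19 late genes passed, with all 19 positive and a median of 0.23. The early genes gave 1 of 4 (median 0.046) and those in between 0 of 8 (median 0.069, with Tfrc alone at an unadjusted p under 0.05 in edgeR). The difference between stages was not itself tested. DESeq2 and limma-voom passed no receptor and no gene of the middle stage either.

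**Figure D1:**
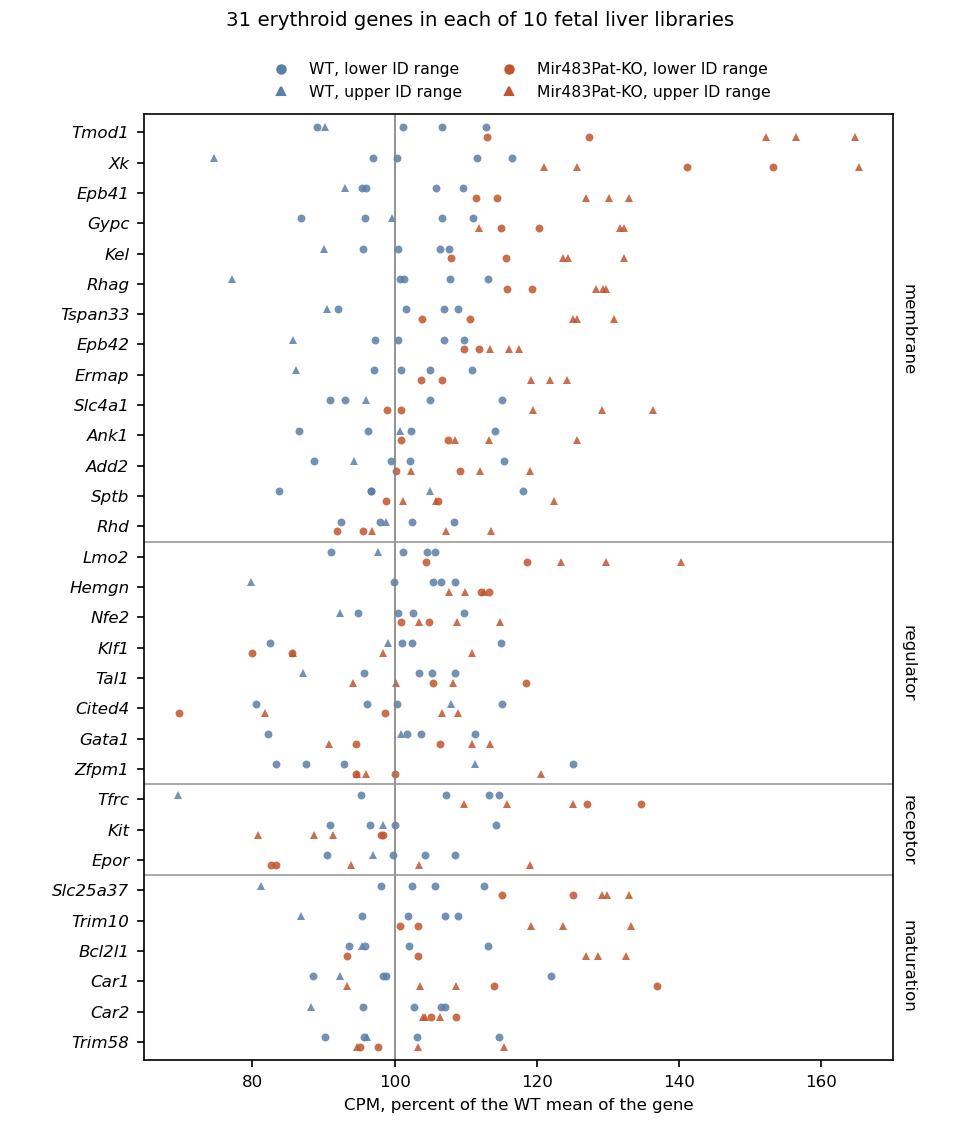
CPM of each of the 31 genes in each library, as a percentage of the gene's WT mean, with genes grouped by role and ordered by p within a role. Blue is WT, orange is Mir483Pat-KO, circles are low identification numbers and triangles high ones. Tmod1 and Xk show the largest differences of the means, and the WT triangle is the lowest point for 14 genes.

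The number that passed depended on which libraries entered the fit. Leaving out 1 library at a time gave between 1 and 8 members higher, where 0.611% to 2.74% of all genes tested passed in that direction. All 8 passed without Mir483Pat-KO replicate 1, and 6 passed without WT replicate 1 (Gypc, Rhag, Xk, Tmod1, Lmo2 and Slc25a37). There were 4 without WT replicate 2 (Epb41, Xk, Tmod1 and Slc25a37), 4 without WT replicate 3 (Rhag, Xk, Tmod1 and Slc25a37), 5 without WT replicate 4 (Gypc, Epb41, Xk, Tmod1 and Slc25a37) and 3 without WT replicate 5 (Xk, Tmod1 and Slc25a37). Without Mir483Pat-KO replicate 3 only Tmod1 passed, without replicate 2 Epb41 and Tmod1, and without replicate 4 or replicate 5 Xk and Tmod1. Tmod1 was the one member that passed in all 10 of these fits. Each of the 8 kept a positive log2 fold change in all 10.

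**Figure D2:**
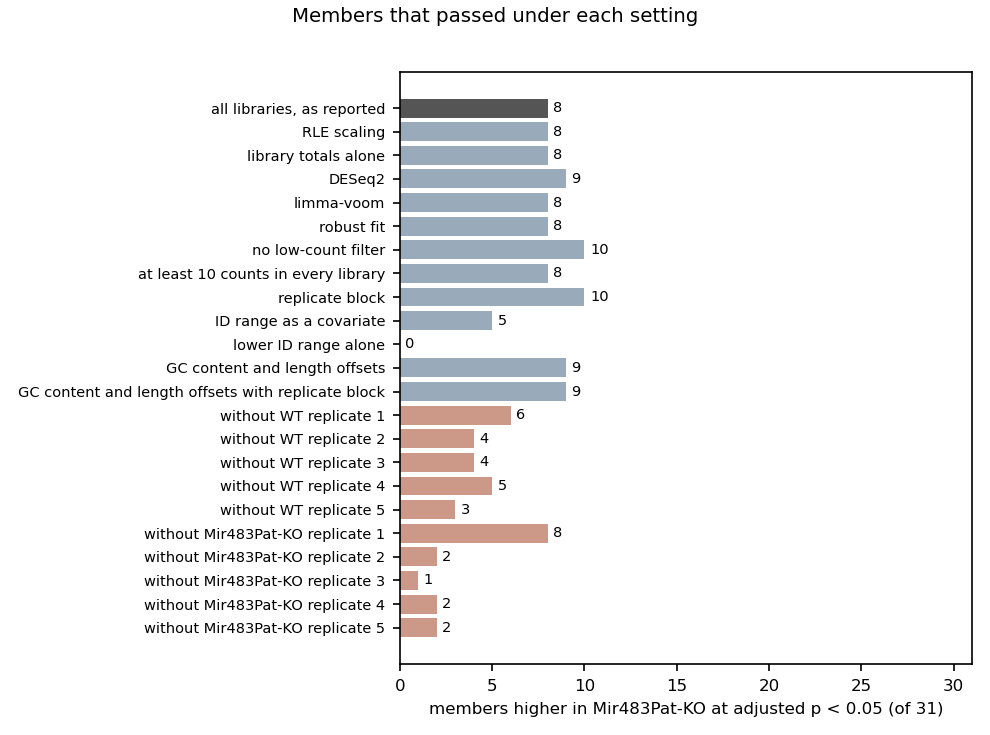
Number of the 31 members higher in Mir483Pat-KO at an adjusted p under 0.05 under each setting of the analysis (dark bar, all libraries as reported; blue, other settings; red, each library left out). The count runs from 0 in the low-numbered libraries alone to 10 with the replicate block, where 5.26% of all genes were higher, or without the low-count filter, where 2.23% were.

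Within the 4 WT and 2 Mir483Pat-KO libraries with low identification numbers no member passed (edgeR), where 0.0207% of the 14494 genes tested passed in the higher direction. At an unadjusted p under 0.05 there were 8 members. Xk, Tmod1, Slc25a37, Gypc, Tfrc and Car1 were the 6 higher, against 6.34% of all genes tested there, and Klf1 and Epor the 2 lower, against 7.24%. The median over the 31 genes was 0.051, with 21 positive, and over the 19 late genes 0.059, with 14 positive. The 8 genes that passed in all libraries remained positive there. With the range as a covariate in all 10 libraries 5 members passed, Rhag, Xk, Tmod1, Slc25a37 and Tfrc, against 4.58% of all genes tested in the higher direction, and the median was 0.15. The high range holds 1 WT library and gave no fit of its own.

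Tmod1 encodes tropomodulin, which caps the actin filaments of the membrane skeleton. It lies on the plus strand of chromosome 4, from 46038935 to 46116032 (GRCm38). Its CPM were 61.9, 51.7, 58.7, 65.5 and 52.3 in WT replicates 1 to 5 and 65.6, 73.9, 95.6, 90.8 and 88.3 in Mir483Pat-KO replicates 1 to 5. The groups met without overlapping, since Mir483Pat-KO replicate 1 and WT replicate 4 were nearly equal, and the 3 high-numbered Mir483Pat-KO libraries stood apart from the rest. The mean rose from 58.0 ± 5.99 to 82.8 ± 12.6 (SD, n = 5 per group), with a change of 0.51 on the log2 scale (standard error 0.101, edgeR adjusted p = 0.0103). In the low-numbered libraries it was 0.23 (edgeR adjusted p = 0.363). Exons of Tstd2, on the opposite strand, cover 32.6% of the exonic bases of Tmod1, and although the libraries were stranded, the strand setting of the counting is not given in the sources used here, so whether the 2 genes share reads is not known.

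Epb41 encodes protein 4.1, which ties spectrin and actin to the membrane (chromosome 4, 131923413 to 132075321, minus strand, GRCm38). WT libraries held 657, 660, 728, 754 and 640 CPM and Mir483Pat-KO libraries 766, 787, 874, 895 and 915 CPM. Every Mir483Pat-KO library was above every WT library. On the log2 scale the change was 0.30 (standard error 0.0748, edgeR adjusted p = 0.0305), and 0.15 in the low-numbered libraries.

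Xk and Kel encode partners: the XK protein carries the Kell blood group protein in the red cell membrane. Xk (chromosome X, 9272756 to 9313250, plus strand, GRCm38) stood at 41.1, 45.7, 47.8, 39.7 and 30.6 CPM in WT and 57.8, 62.8, 67.7, 51.5 and 49.6 CPM in Mir483Pat-KO. All 5 Mir483Pat-KO libraries exceeded the highest WT library and replicates 1 to 3 were the highest. This gave a log2 fold change of 0.50 (standard error 0.112, edgeR adjusted p = 0.0198). Among the 8 genes Xk had the largest change in the low-numbered libraries, 0.46, with the smallest edgeR adjusted p there, 0.0944. Kel (chromosome 6, 41686330 to 41704339, minus strand, GRCm38) stood at 335, 318, 354, 358 and 300 CPM in WT, and at 360, 385, 441 and 414 CPM in Mir483Pat-KO replicates 1, 2, 4 and 5, with replicate 3 between replicates 2 and 5. Mir483Pat-KO replicate 1 cleared the highest WT library by a narrow margin and the others by more. Its log2 fold change was 0.27 (standard error 0.0738, edgeR adjusted p = 0.0434), and 0.12 in the low-numbered libraries.

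Gypc encodes glycophorin C, the membrane anchor of protein 4.1. Its CPM were 103, 83.7, 92.4, 107 and 96.1 in WT and 111, 116, 108, 128 and 127 in Mir483Pat-KO. The lowest Mir483Pat-KO value lay just above the highest WT value. Gypc changed by 0.29 on the log2 scale (standard error 0.0775, edgeR adjusted p = 0.0416), and 0.23 in the low-numbered libraries. Rhag encodes the Rh-associated glycoprotein, without which the Rh complex does not reach the membrane (chromosome 17, 40811126 to 40840754, plus strand, GRCm38). Rhag stood at 170, 159, 178, 160 and 122 CPM in WT and 182, 188, 204, 202 and 204 CPM in Mir483Pat-KO. WT replicate 5 was far below the other WT libraries, and the groups did not overlap. Rhag changed by 0.32 on the log2 scale (standard error 0.0884, edgeR adjusted p = 0.0486), and 0.15 in the low-numbered libraries.

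The other 8 membrane genes were positive without passing. Tspan33, a tetraspanin of erythroid cells, came closest, with 128 to 154 CPM in WT, 147 to 185 CPM in Mir483Pat-KO and a change of 0.25 on the log2 scale (edgeR adjusted p = 0.0746). It passed with DESeq2, without the low-count filter and with the replicate block (edgeR adjusted p = 0.0368 with the block). In the low-numbered libraries its change was 0.064. Epb42, protein 4.2, was separated between the groups, at 205 to 263 CPM in WT and 263 to 281 CPM in Mir483Pat-KO. It changed by 0.19 on the log2 scale (edgeR adjusted p = 0.138), and 0.095 in the low-numbered libraries. Slc4a1, which encodes the anion exchanger band 3, was the highest of the 31 genes per length, at 2215 to 2806 CPM in WT and 2411 to 3324 CPM in Mir483Pat-KO. Its log2 fold change was 0.23 in all libraries (edgeR adjusted p = 0.188) and −0.019 in the low-numbered ones. Ermap, an erythroid membrane protein, had 0.20, Ank1, the ankyrin that ties band 3 to spectrin, 0.15, Add2, a subunit of adducin, 0.12, Sptb, beta spectrin, 0.096, and Rhd, a subunit of the Rh complex, 0.015 on the log2 scale. The Rh pair thus gave a passing partner, Rhag, and a partner whose 95% interval ran from −0.139 to 0.169, Rhd. With the GC content and length offsets described below Rhag did not pass (0.21, edgeR adjusted p = 0.109), and Rhd had 0.070. The difference between these genes was not tested.

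**Figure D3:**
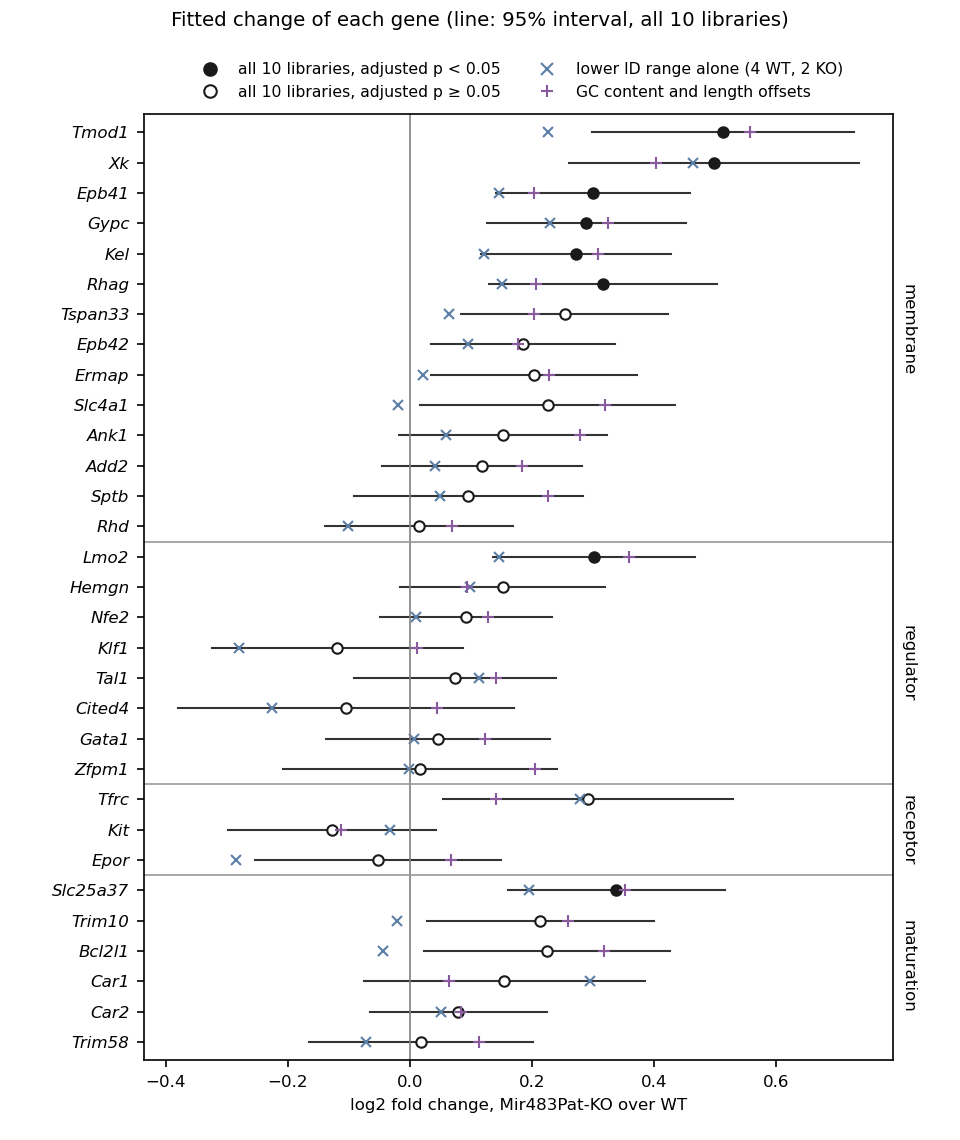
Log2 fold change of each member, Mir483Pat-KO over WT, with its 95% interval from all 10 libraries (filled circles, adjusted p under 0.05). Crosses give the fit in the low-numbered libraries alone and plus signs the fit with GC content and length offsets. Crosses lie left of the circles for all genes but Tal1, Kit and Car1.

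Among the regulators, Lmo2 is the bridge that joins Tal1 to Gata1 on DNA (chromosome 2, 103957986 to 103981878, plus strand, GRCm38). Its CPM were 103, 89.5, 99.4, 104 and 96.0 in WT and 103, 117, 138, 128 and 121 in Mir483Pat-KO. Mir483Pat-KO replicate 1 lay inside the WT range and the other 4 above it. Lmo2 changed by 0.30 on the log2 scale (standard error 0.0782, edgeR adjusted p = 0.0365), and 0.15 in the low-numbered libraries.

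Hemgn, a nuclear protein of erythroid precursors, stood at 341, 323, 344, 351 and 258 CPM in WT and 366, 363, 364, 356 and 348 CPM in Mir483Pat-KO. The Mir483Pat-KO values were tightly grouped and WT replicate 5 was low. The log2 fold change of 0.15 did not pass (edgeR adjusted p = 0.274). Nfe2, a factor that drives globin genes, gave 133, 125, 136, 145 and 122 CPM in WT and 134, 139, 137, 144 and 152 CPM in Mir483Pat-KO. The ranges overlapped, and only Mir483Pat-KO replicate 5 exceeded all of WT (log2 fold change 0.092, edgeR adjusted p = 0.446).

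The other 5 regulators differed by less than the spread between replicates. Gata1 had a mean of 66.3 ± 7.13 CPM in WT, and its mean in Mir483Pat-KO was 68.4 ± 6.66 CPM (SD, n = 5 per group). The 95% interval of its log2 fold change, 0.046, ran from −0.138 to 0.229. Tal1 had 0.074, with an interval from −0.091 to 0.239, and Zfpm1, the cofactor that binds Gata1, 0.017, with an interval from −0.208 to 0.242. Klf1, the activator of the adult globin gene and of many membrane genes, had −0.12, with an interval from −0.324 to 0.0867, and Cited4, a transcriptional cofactor and the lowest regulator per length, −0.11, with an interval from −0.38 to 0.17. In the low-numbered libraries Klf1 had −0.28 (unadjusted p = 0.0346, edgeR adjusted p = 0.325). No direction can be read for these 5 genes.

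None of the 3 receptors passed. Tfrc, the transferrin receptor, stood at 522, 494, 528, 438 and 320 CPM in WT and 585, 620, 533, 576 and 505 CPM in Mir483Pat-KO. Mir483Pat-KO replicates 1 to 4 were above all WT libraries, and WT replicate 5 was far below the rest. The log2 fold change of 0.29 did not pass (standard error 0.113, edgeR adjusted p = 0.139), but it was 0.45 and passed with the identification number range as a covariate (edgeR adjusted p = 0.0143). Tfrc also passed with the replicate block (edgeR adjusted p = 0.0372) and without the low-count filter. With GC content and length offsets its change was 0.14 (edgeR adjusted p = 0.276), and without WT replicate 5 it was 0.19.

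Kit was lowest per length of all 31 genes. Its CPM were 41.8, 36.5, 35.3, 33.2 and 36.0 in WT and 35.9, 36.0, 29.5, 32.4 and 33.4 in Mir483Pat-KO, with 2 Mir483Pat-KO libraries below all of WT. Kit had a log2 fold change of −0.13, with a 95% interval from −0.298 to 0.0429 (edgeR adjusted p = 0.375). Epor stood at 46.9 to 56.2 CPM in WT and 42.8 to 61.7 CPM in Mir483Pat-KO. Its 2 lowest libraries were Mir483Pat-KO replicates 1 and 2 and its highest was Mir483Pat-KO replicate 5, and the log2 fold change was −0.052 in all libraries and −0.28 in the low-numbered ones, where the edgeR adjusted p was 0.219.

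Of the genes of maturation, Slc25a37 encodes mitoferrin, which brings iron into the mitochondria of erythroblasts (chromosome 14, 69241848 to 69285112, minus strand, GRCm38). It stood at 1240, 1187, 1278, 1361 and 983 CPM in WT and 1393, 1514, 1609, 1571 and 1562 CPM in Mir483Pat-KO. All 5 Mir483Pat-KO libraries lay above WT, and WT replicate 5 was the lowest. The log2 fold change was 0.34 (standard error 0.0837, edgeR adjusted p = 0.0298), and 0.20 in the low-numbered libraries.

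Trim10, a tripartite motif protein of late erythroblasts, had 228, 213, 239, 244 and 194 CPM in WT and 225, 231, 266, 298 and 276 CPM in Mir483Pat-KO. Bcl2l1, whose product keeps late erythroblasts alive, had 146, 142, 155, 172 and 145 CPM in WT and 142, 157, 193, 195 and 201 CPM in Mir483Pat-KO. For both genes the 3 high-numbered Mir483Pat-KO libraries were above all of WT and the low-numbered ones were not. The log2 fold change was 0.21 for Trim10 (edgeR adjusted p = 0.163) and 0.23 for Bcl2l1 (edgeR adjusted p = 0.176), and in the low-numbered libraries it was −0.021 and −0.044. The carbonic anhydrases Car1 and Car2 had log2 fold changes of 0.15 and 0.079, and Trim58, which takes part in the loss of the nucleus, 0.018. None of these 3 passed in any setting tried.

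Levels per kilobase of exon spread over 121-fold among the 31 genes in WT, from 4.10 ± 0.356 for Kit to 498 ± 49.9 for Slc4a1 (CPM per kb, SD, n = 5). After Slc4a1 came Car2 at 388 ± 31.1, Slc25a37 at 201 ± 23.5, Hemgn at 129 ± 15.1 and Kel at 120 ± 8.82. Just above Kit were Xk at 8.08 ± 1.31, Cited4 at 10.5 ± 1.37 and Trim58 at 11.3 ± 1.06. Only 6 of the 30 neighbouring pairs in this order did not overlap over the 5 WT libraries. The genes that passed were found at both ends of the order.

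Read by library, the summed CPM of the 19 late genes was 7823 to 9507 in WT libraries and 9067 to 10790 in Mir483Pat-KO libraries, a ratio of the means of 1.17. The sum of the 4 early genes was 379 to 458 in WT libraries and 427 to 457 in Mir483Pat-KO libraries, a ratio of 1.07. Mir483Pat-KO replicate 5 was the highest library for 12 of the 31 genes, against 7.69% of all genes tested, whereas WT replicate 5 was the lowest for 14, against 19.3%, and WT replicate 2 for 10, against 10.2%. Mir483Pat-KO replicates 1 to 5 exceeded all WT libraries for 12, 13, 16, 16 and 22 of the 31 genes. Of all genes tested they did so for 18.6%, 22.1%, 23.1%, 23.7% and 19.3%. In the low-numbered libraries alone the ratio was 1.05 for the late sums and 1.06 for the early sums. The median log2 fold changes there were 0.059 over the late genes, with 14 of 19 positive, and 0.056 over the early genes, with 2 of 4 positive.

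Markers of the blood and liver cells around these genes were read in the same way, and their counts stand against 2.43% of all genes tested higher and 2.76% lower. The summed CPM of 8 haemoglobin genes was 12210 to 15960 in WT libraries and 14400 to 21580 in Mir483Pat-KO libraries, with 1 of 7 tested genes passing, higher, and all 7 positive. The sum of 15 proliferation markers was 2671 to 3099 in WT libraries and 3155 to 3467 in Mir483Pat-KO libraries, without overlap, and 4 of 15 passed, all higher. The sum of 12 hepatocyte markers was 213200 to 239600 in WT libraries and 195900 to 226800 in Mir483Pat-KO libraries, with 2 of 12 passing, both lower. For 12 macrophage markers the ranges were 884 to 1095 and 763 to 1012, with 3 of 12 passing, all lower. Haemoglobin, proliferation and late erythroid sums were highest, and the hepatocyte sum lowest, in the same 3 high-numbered Mir483Pat-KO libraries. No marker was at 0 in all libraries. The part of these shifts in the results above was not tested.

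**Figure D4:**
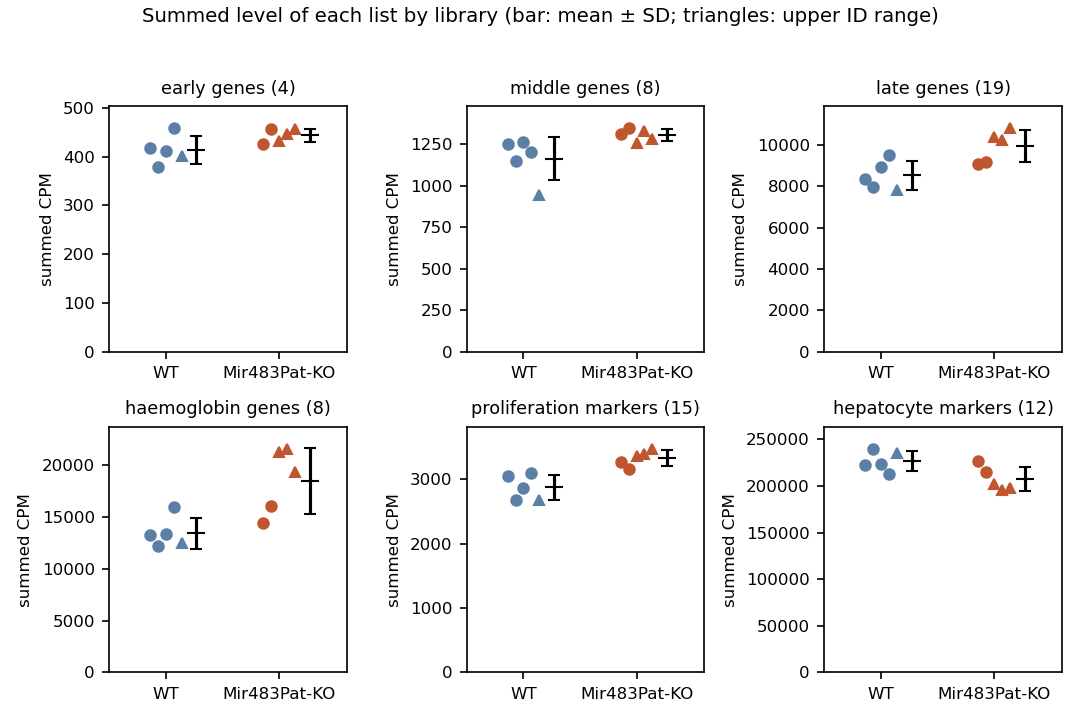
Summed CPM per library for the early, middle and late erythroid genes and for 3 marker lists (blue, WT; orange, Mir483Pat-KO; triangles, high identification numbers; black, mean ± SD, n = 5). The late, haemoglobin and proliferation sums are highest and the hepatocyte sum lowest in the Mir483Pat-KO triangles.

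GC content moved with the direction of change. Across all genes tested, log2 fold change and exonic GC content correlated at a Spearman rho of −0.439, where all genes share the same 10 libraries and are not independent. The 5 members under 45% GC, Rhag, Epb41, Xk, Tfrc and Car1, had a median of 0.30, against 0.14 for the 3744 genes in that range. The 16 members from 45% to 55% had 0.19, against −0.011 for 7379 genes. The 10 members over 55%, Slc4a1, Sptb, Ank1, Klf1, Gata1, Zfpm1, Cited4, Epor, Bcl2l1 and Trim58, had 0.032, against −0.11 for 2966 genes, and none of the 10 passed (edgeR; 2 were under 0.05 before adjustment, Slc4a1 and Bcl2l1). Of all genes tested 5.96% passed in the higher direction under 45% GC, 1.49% from 45% to 55% and 0.303% over 55%, so that a count of 0 among 10 is near the background of that range. These ranges were set after the values had been seen.

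When smooth trends of counts with GC content and length were taken out of each library by offsets, 9 members passed, against 2.09% of all genes tested in the higher direction, and 30 of 31 were positive, with a median of 0.20. Of the 8, Gypc, Xk, Kel, Tmod1, Lmo2 and Slc25a37 passed again, Epb41 (0.20, edgeR adjusted p = 0.206) and Rhag (0.21, edgeR adjusted p = 0.109) did not, and Slc4a1, Ank1 and Bcl2l1 were added. The 10 members over 55% GC then had a median of 0.16 and the 5 under 45% one of 0.20. Klf1, Cited4 and Epor, negative on the counts as deposited, became slightly positive at 0.012, 0.044 and 0.068, and Kit stayed negative at −0.11.

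**Figure D5:**
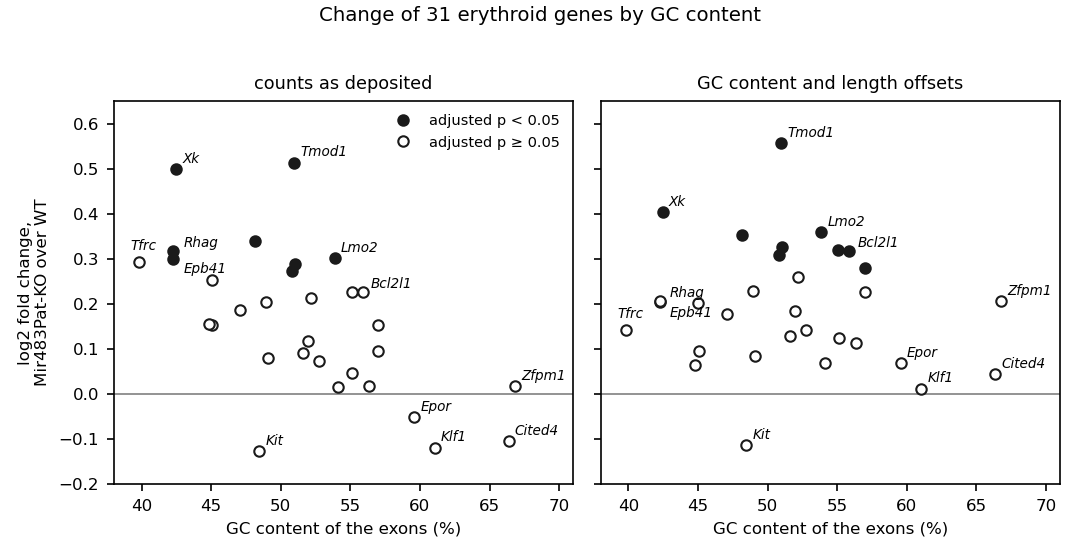
Log2 fold change of the 31 members against the GC content of their exons, on the counts as deposited (left) and with GC content and length offsets (right). Filled circles passed at an adjusted p under 0.05. The negative genes Klf1, Epor and Cited4 lie at the GC-rich end on the left and near 0 on the right.

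The promoters were read for the motifs of 2 factor families that drive erythroid genes, GATA factors (AGATAA) and Klf1, which binds CACCC boxes (searched as CCNCNCCC), on both strands and in the 300 bases from 250 before to 50 after the start. No base can belong to matches of both motifs, but CCNCNCCC matches overlap one another in runs of G or C. RefSeq promoters (GRCm38.p6) were found for 23 of the 31 members, 30 promoters in all, and the other 8 members were Slc4a1, Ank1, Gypc, Nfe2, Lmo2, Car1, Car2 and Slc25a37. AGATAA stood in 8 of the 30 promoters, of Bcl2l1, Epb42, Epor, Hemgn, Kel, Rhd, Tal1 and Trim10, against 11.2% of all 32851 promoters. CCNCNCCC stood in 19 of the 30, of 16 members, against 49.5%, and 3 single promoters held both, of Epor, Hemgn and Rhd, against 3.4%. Bcl2l1 and Tal1 held them in separate promoters. The E-box letters CAGNTG, the site of Tal1, stood in 14 of the 30, against 51.4%. Of the 5 genes that passed and had a promoter here, Kel held AGATAA, Xk, Tmod1 and Epb41 held CCNCNCCC, and Rhag held neither.

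Printed here are promoters of members that passed with an AGATAA match, with CCNCNCCC matches and with neither, and of a receptor that did not pass and held both. Capitals mark the matches, and each runs 5′ to 3′ along its gene.
Kel, chr6:41704276-41704575, minus strand: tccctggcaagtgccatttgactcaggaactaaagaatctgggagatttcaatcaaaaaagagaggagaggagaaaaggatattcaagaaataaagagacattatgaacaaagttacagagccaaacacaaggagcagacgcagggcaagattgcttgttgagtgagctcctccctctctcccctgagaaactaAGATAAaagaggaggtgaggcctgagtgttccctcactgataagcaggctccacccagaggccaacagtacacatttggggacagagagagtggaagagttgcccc
Tmod1, chr4:46038972-46039271, plus strand: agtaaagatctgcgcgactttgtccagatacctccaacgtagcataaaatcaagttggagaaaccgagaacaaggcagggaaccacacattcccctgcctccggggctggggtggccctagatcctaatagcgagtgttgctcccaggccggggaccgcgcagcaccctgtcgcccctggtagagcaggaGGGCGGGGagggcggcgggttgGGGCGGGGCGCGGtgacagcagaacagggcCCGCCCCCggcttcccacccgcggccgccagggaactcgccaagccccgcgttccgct
Rhag, chr17:40810899-40811198, plus strand: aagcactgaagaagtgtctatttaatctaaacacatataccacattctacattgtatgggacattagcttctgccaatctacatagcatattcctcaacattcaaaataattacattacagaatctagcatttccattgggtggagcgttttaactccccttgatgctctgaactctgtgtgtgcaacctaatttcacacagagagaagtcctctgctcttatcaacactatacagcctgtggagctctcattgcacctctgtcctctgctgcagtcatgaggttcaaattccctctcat
Epor, chr9:21963527-21963826, minus strand: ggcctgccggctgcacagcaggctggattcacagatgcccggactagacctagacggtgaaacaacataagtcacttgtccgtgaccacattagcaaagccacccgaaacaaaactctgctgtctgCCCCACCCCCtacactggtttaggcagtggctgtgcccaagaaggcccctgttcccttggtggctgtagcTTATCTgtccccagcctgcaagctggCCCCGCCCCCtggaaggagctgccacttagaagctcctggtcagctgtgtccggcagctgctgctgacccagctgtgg

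Sites for the deleted microRNA were searched as the 7 letters complementary to the seed, AGGAGTG for the 3p strand and CCCGTCT for the 5p strand, in the longest annotated 3′ end of each coding gene (GENCODE M21, GRCm38). All 31 members had one, with a median of 972 bases against 1184 for the 12875 genes tested that had one. The 3p letters stood in 6 of the 31, Add2, Epb41, Klf1, Tal1, Tmod1 and Tspan33, against 12.6% of the 12875 genes. The 5p letters stood in Tfrc alone, against 3.3%. Of the 6 genes with 3p letters, Tmod1 and Epb41 passed, with 0.51 and 0.30, and Tspan33 (0.25), Add2 (0.12), Tal1 (0.074) and Klf1 (−0.12) did not. The other 6 of the 8 genes that passed held neither. A match of letters is no evidence that the strand binds there. The matches of the 2 that passed and of Tspan33, the next in order of p, are printed with their flanks, in capitals.
Tmod1: cacacgggcccAGGAGTGgcaccaagctg
Epb41, first match: cagcttctctgAGGAGTGgcacagtaaga
Epb41, second match: tattgcttattAGGAGTGtttcttaataa
Tspan33, first match: acatgggggatAGGAGTGaagggggtatg
Tspan33, second match: taacttggcagAGGAGTGgcaccaccacc

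A further 45 genes of the same pathway, written as a list by role with earlier results of these data known, served as a comparison in the same libraries. Of these 44 had a row and 43 were tested, Ahsp was not analysed here, and Epo, the hormone that acts on Epor, held 0 to 4 counts per library and was below the filter. Of the 43, 10 were higher in Mir483Pat-KO, against the 2.43% of all genes tested, and 0 were lower (edgeR, with Tfr2 the 1 gene lower in a few other settings). The median was 0.17, and −0.0012 in the low-numbered libraries alone. Those higher were 7 of 16 genes of maturation, 2 of 12 regulators and 1 of 13 membrane genes. The ligands did not pass: Kitl, the ligand of Kit, had 0.15 (edgeR adjusted p = 0.690), and Trf, transferrin, which hepatocytes make, −0.12 (edgeR adjusted p = 0.375). Exons of Gm20425 on the same strand cover 63.5% of those of Trf, so its level is uncertain.

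Among those that passed were Cd24a and Xpo7. Cd24a, a surface marker of erythroblasts, had 889, 783, 828, 822 and 620 CPM in WT and 942, 1066, 1169, 1157 and 991 CPM in Mir483Pat-KO. Xpo7, an exportin of maturing erythroblasts, had 553, 560, 581, 550 and 386 CPM in WT and 620, 675, 754, 820 and 874 CPM in Mir483Pat-KO. For both genes the groups did not overlap, and WT replicate 5 was the lowest library. The log2 fold change was 0.43 for Cd24a (edgeR adjusted p = 0.0161) and 0.51 for Xpo7 (edgeR adjusted p = 0.0180). In the low-numbered libraries they had 0.27 and 0.20 and did not pass, and 0 of the other erythroid genes passed there, with 6 higher and 2 lower (Tfr2 and Steap3, named after their values were seen) at an unadjusted p under 0.05 in edgeR, against the same 6.34% and 7.24%. Cd24a and Xpo7 each passed in 9 of the 10 fits with 1 library left out, all but the fit without Mir483Pat-KO replicate 4.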

How the data were processed

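Liver polyA RNA of 5 WT and 5 Mir483Pat-KO fetuses was sequenced from stranded TruSeq libraries. The authors aligned paired reads with STAR to GRCm38 (named in the submitters' processing notes and the study's methods) and deposited raw counts per gene, without normalization. The strand setting and the rule for reads with several positions are not given in the sources used here. Groups came from the labels.

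Counts were tested with the quasi-likelihood F-test of edgeR 4.0.16 (R 4.3.3), without covariates, after TMM scaling and the default filterByExpr. The Benjamini-Hochberg adjustment ran over 14098 genes, and a gene passed at an adjusted p under 0.05. The common biological coefficient of variation was 0.111. P-values measure the spread between these fetuses. Counts of any 2 libraries of a group differed beyond sampling noise (chi-square over its degrees of freedom at least 4.86). Floors and counts at 0 cover counting error only.

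The members and lists were chosen with earlier results of these data known. Every member was named. Those that passed are given by library (Kel in 9 of 10 libraries), and in a role with at most 1 passing gene the 2 others with the smallest p (both receptors with the smallest p) as well. Of the other erythroid genes Epo, Kitl, Trf and the 4 smallest p were to be named, and results that rest on an item withheld for evaluation are not reported here. Of the markers (haemoglobin, hepatocyte, megakaryocyte, mast and basophil, endothelial, macrophage, neutrophil, B lymphoid, stem and progenitor, proliferation) sums and counts are given.

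Alternatives were RLE scaling, library totals alone, DESeq2 1.42.0, limma-voom (limma 3.58.1), the robust fit, no filter, a filter of 10 counts in every library, a block of the replicate number, a covariate for the range of identification numbers, the low-numbered libraries alone, GC content and length offsets (mgcv 1.9.3) with and without the block, a fold change over 1.5, and each library left out. Deviations from the group mean correlated at 0.0871 on average (−0.0496 to 0.261) in same-numbered pairs and at −0.0217 in others. Such deviations cancel within a group, so these averages are tied to each other. They cannot decide whether equal replicate numbers mark pairs of libraries. Positions, exons and 3′ ends came from GENCODE M21, promoters and mature microRNAs from RefSeq. Scripts were tested on simulated data. Figures were drawn with matplotlib 3.10.9 (Python 3.11.15).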

Additional observations from a re-analysis of the deposited data

Results flagged for a closer look

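In the Mir483Pat-KO group Zfpm1 stood at 133 CPM in replicate 5, against 110 CPM in the next library, a gap of 0.785 of the range of the group, beyond the critical value of 0.71 for 5 samples. The same library was the highest for 12 of the 31 genes.

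In the WT group the summed level of 7 stem and progenitor markers was 55.4 CPM in replicate 5, against 68.4 CPM in the next library, a gap of 0.797 of the range. WT replicate 5 was also the lowest library for 14 of the 31 genes. Chance flags about 1 in 20 groups, and 98 groups of 5 libraries were examined, 62 of them of the 31 genes.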

How the results depend on the processing

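Of the 31 genes 8 were higher in Mir483Pat-KO. The count was 8 with RLE scaling, library totals alone, limma-voom, the robust fit and at least 10 counts in every library, the same 8 genes each time, 9 with DESeq2, 10 without the filter and 10 with the replicate block, each time including the same 8. The share of all genes that were higher, 2.43%, also moved, to 3.85% with library totals alone, 3.94% with DESeq2, 2.23% without the filter and 5.26% with the replicate block. The count of members was 9 with GC content and length offsets (2.09% of all genes higher) and 9 with these and the replicate block (2.66%), of which 6 were among the 8. It fell to 5 with the identification number range as a covariate and to 0 in the low-numbered libraries alone (6 libraries). It was 0 with a fold change over 1.5, for which the share of all genes was not counted. With 1 library left out it ran from 1 to 8. No member was lower in any setting. The median of the members, 0.15, was 0.051 in the low-numbered libraries alone. The count of other erythroid genes that were higher, 10, was 16 with GC content and length offsets and 18 with these and the replicate block, where 2.09% and 2.66% of all genes were higher. It was 0 in the low-numbered libraries alone, where 0.0207% were. With 1 library left out, where 0.611% to 2.74% were, it ran from 3 to 13 (3, 4, 6 and 5 without Mir483Pat-KO replicates 4, 3, 5 and WT replicate 5). That of other erythroid genes lower, 0, was 1 without the filter, with the replicate block and with the identification number range as a covariate, and 0 to 1 with 1 library left out, the gene being Tfr2. Mir483 passed in every setting that gave an adjusted p, with log2 fold changes that depend on the prior count, DESeq2 gave none, and the filter of 10 counts removed it. Library totals alone moved the median of all genes from 0.0042 to 0.039. Whether equal replicate numbers mark pairs of libraries could not be decided. The causes of these differences were not tested.

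Both groups hold 5 libraries, the Mir483Pat-KO group 2 with low identification numbers and WT 1 with a high one. The range, GC content, library and genotype are partly aligned. Bulk counts cannot separate cell number from RNA per cell, and CPM are relative to a liver in which hepatocyte markers dominate.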

Other observations

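Among the marker lists not described above, 0 of 11 megakaryocyte genes passed (edgeR, median log2 fold change −0.16), with summed CPM of 275 to 560 in WT and 296 to 425 in Mir483Pat-KO. Endothelial genes had 606 to 685 CPM in WT and 524 to 637 CPM in Mir483Pat-KO, and 1 of 10 passed, lower. Neutrophil genes had 2724 to 4067 and 3442 to 3960 CPM, B lymphoid genes 112 to 143 and 126 to 154 CPM, and mast and basophil genes 4.43 to 5.27 and 3.36 to 6.57 CPM. Of these 0 of 10, 1 of 9 (higher) and 0 of 3 tested genes passed. Stem and progenitor genes had 55.4 to 71.7 CPM in WT and 60.9 to 69.9 CPM in Mir483Pat-KO, with 0 of 7 passing.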
